A study of Mus musculus with 4 samples.

Results

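Neutrophils carrying transcripts for the chemokines CXCL2 and CXCL3 and for IL-36 gamma (gene Il1f9) were examined in MC38 tumors, a mouse colon carcinoma line grown under the skin. The cells were chosen by measured values, cell by cell. Barcodes with under 500 genes, or with over 10% of their unique molecular identifiers (UMIs, each 1 counted transcript) on mitochondrial genes, were left out and the rest kept. A kept cell was taken as a neutrophil if it had at least 1 UMI of Csf3r, at least 3 UMIs of S100a8 and S100a9 together, under 0.1% of its UMIs on C1qa, C1qb, C1qc and Csf1r, at most 2 on Cd3d, Cd3e and Cd3g and at most 1 on Ncr1 and Klrb1c. Of these, cells with at least as many UMIs of Cxcl2, Cxcl3 and Il1f9 as of Retnlg, Lrg1 and Mmp9 were taken as inflammatory neutrophils. They numbered 414 of 28194 kept cells and of 503 neutrophils; the remaining 89 are called the other neutrophils.

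The mice were C57BL/6 animals carrying human CTLA-4 (B-hCTLA-4). After MC38 cells had been injected, treatment began when tumors measured about 100 mm3. Live CD45+ cells were sorted from the tumors on day 8 after 3 treatments, and according to the labels the tumors of 11 mice were pooled for each of the 4 libraries. The isotype control group received human IgG1 at 10 mg/kg. The combination group received the anti-human CTLA-4 antibody ipilimumab (human IgG1) at 10 mg/kg and the anti-mouse FcgRII antibody AT130-2 (mouse IgG1 with the N297A change, which impairs binding of its own Fc to Fc receptors) at 20 mg/kg. For the remaining pair of libraries the labels conflict: the titles name anti-human CTLA-4 for one and anti-mouse FcgRII for the other, whereas their treatment fields name the opposite antibody. These are therefore called the library titled anti-human CTLA-4 and the library titled anti-mouse FcgRII, and which antibody each group of mice received was not settled here. The study's methods give other doses, numbers of mice and timing than the labels. Every series of 4 values below follows the order isotype control, titled anti-human CTLA-4, titled anti-mouse FcgRII and combination. With 1 pooled library per group no test between treatments was possible, and intervals cover counting error only.

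Neutrophils are short-lived granulocytes that leave the bone marrow under the control of G-CSF, whose receptor is encoded by Csf3r. CXCL1, CXCL2 and CXCL3 bind CXCR2 and draw further neutrophils to a site of inflammation, and IL-36 gamma is an interleukin-1 family cytokine that acts on epithelial and immune cells. Circulating mature neutrophils are known for Retnlg, Lrg1 and Mmp9, the last encoding the gelatinase of their granules. Neutrophils in tumors commonly differ from those in blood in chemokines, glycolysis and ligands such as PD-L1 for receptors on T cells.

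Cxcl2 (chr5:90903871-90905938) and Cxcl3 (chr5:90786103-90789600) lie on the plus strand of chromosome 5 in GRCm38, the build of the files (mm10), and Il1f9 (chr2:24186476-24193568) on the plus strand of chromosome 2. A word of the kind bound by NF-kB, GGAATTTCC on either strand, was looked for in the RefSeq promoters of GRCm38.p6, each running from 250 bases before to 50 bases after a start. The word was present in the promoters of Cxcl2 and Cxcl3 and of their relative Cxcl1, and not in that of Il1f9. The 80 bases from 120 to 41 before each RefSeq start are shown because both of the first pair of genes counted toward membership; capitals mark the word.
Cxcl2 (chr5:90903779-90903858, plus strand): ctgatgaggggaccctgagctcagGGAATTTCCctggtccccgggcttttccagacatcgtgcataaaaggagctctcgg
Cxcl3 (chr5:90785981-90786060, plus strand): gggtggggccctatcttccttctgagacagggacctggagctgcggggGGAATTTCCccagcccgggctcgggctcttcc
Cxcl1 (chr5:90891125-90891204, plus strand): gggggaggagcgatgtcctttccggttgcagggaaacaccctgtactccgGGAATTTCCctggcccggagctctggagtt
Il1f9 (chr2:24186356-24186435, plus strand): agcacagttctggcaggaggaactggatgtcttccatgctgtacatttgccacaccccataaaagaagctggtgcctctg
The word begins 96 bases before the start in Cxcl2, 72 in Cxcl3 and 70 in Cxcl1. Of all 32851 promoters, 0.317% held it. A match of letters describes the sequence and shows no binding.

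The combination library held most of the inflammatory neutrophils. They numbered 43, 55, 22 and 294 cells in the 4 libraries, of 8148, 6364, 6083 and 7599 kept cells. Their share of kept cells was 0.528%, 0.864%, 0.362% and 3.87%, with exact Clopper-Pearson 95% intervals of 0.382 to 0.710%, 0.652 to 1.12%, 0.227 to 0.547% and 3.45 to 4.33%. The share in the combination library was 7.33 (95% interval 5.33 to 10.1) times that in the isotype control library, 4.48 (95% interval 3.36 to 5.96) times that in the library titled anti-human CTLA-4 and 10.7 (95% interval 6.95 to 16.5) times that in the library titled anti-mouse FcgRII. The interval of the combination library overlapped none of the other 3, and the library titled anti-mouse FcgRII was lowest, with an interval that overlapped that of the isotype control library.

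Within neutrophils, the inflammatory cells made up 61.4%, 78.6%, 59.5% and 90.2%, with intervals of 49.0 to 72.8%, 67.1 to 87.5%, 42.1 to 75.2% and 86.4 to 93.2%. The ratio of the combination to the isotype control library was 1.47 (95% interval 1.22 to 1.77), to the library titled anti-human CTLA-4 1.15 (95% interval 1.01 to 1.30) and to the library titled anti-mouse FcgRII 1.52 (95% interval 1.16 to 1.98). The other neutrophils were 0.331%, 0.236%, 0.247% and 0.421% of kept cells, with intervals of 0.218 to 0.482%, 0.132 to 0.388%, 0.138 to 0.406% and 0.288 to 0.594% that all overlapped one another.

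**Figure D1:**
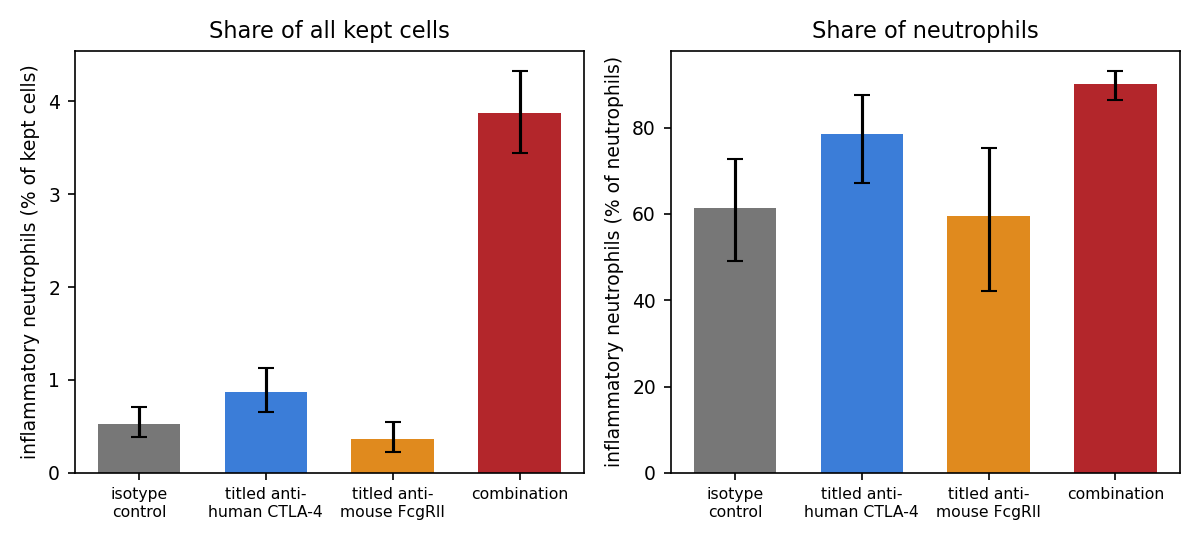
Inflammatory neutrophils as a percentage of kept cells (left) and of neutrophils (right) in each of the 4 libraries; bars are the share in 1 pooled library and lines the exact 95% interval for counting error. The combination library stands at 3.87% of kept cells, above the 3 others, which lie between 0.362% and 0.864%.

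The steps of the rule removed many more Csf3r-bearing cells than they left. At least 1 Csf3r UMI was present in 18243 kept cells, of which 1759 also had 3 S100a8 and S100a9 UMIs. Of those, 1223 exceeded the limit on complement C1q and Csf1r, transcripts of macrophages. These numbered 153, 73, 106 and 891 by library, and their median depth in the combination library was 35819 UMIs. More than 10 UMIs of Cxcl2, Cxcl3 and Il1f9 were found in 67, 34, 29 and 437 of these removed cells, so that the combination library also held most of the deep cells with both sets of transcripts. No doublet caller was run here.

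Inflammatory neutrophils were shallow. Their median was 2835, 3319, 3562 and 3434 UMIs and 973, 1183, 1222 and 1239 genes per cell, against 14896, 15351, 19171 and 18571 UMIs over all kept cells and 3121, 2971, 3499 and 3398 UMIs in the other neutrophils. A small number went far above: 1, 3, 3 and 29 cells, 36 in all, exceeded 10005 UMIs, which is 3 times the median of all neutrophils. These deep cells held 8.81%, 19.9%, 47.2% and 33.5% of the inflammatory neutrophils' UMIs, and in the library titled anti-mouse FcgRII a single cell had 34110 of 124589. Over the 4 libraries, the deep cells had 619.5 UMIs of Csf3r per 1000000 (CPM) against 3931 in the rest, 3552 of Cxcl2 against 15925, and 3744 of the macrophage markers against 1554. Levels below are CPM, summed over the inflammatory neutrophils of a library, with the deep cells included unless stated. Because the deep cells carried less of the neutrophil transcripts and held nearly as many UMIs as the rest in the library titled anti-mouse FcgRII, levels there are mostly lower with them than without. Wherever leaving them out moves a library's level, or the summed level of a gene list, by over 1.5 times, the level without them follows in square brackets or is given beside it.

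**Figure D2:**
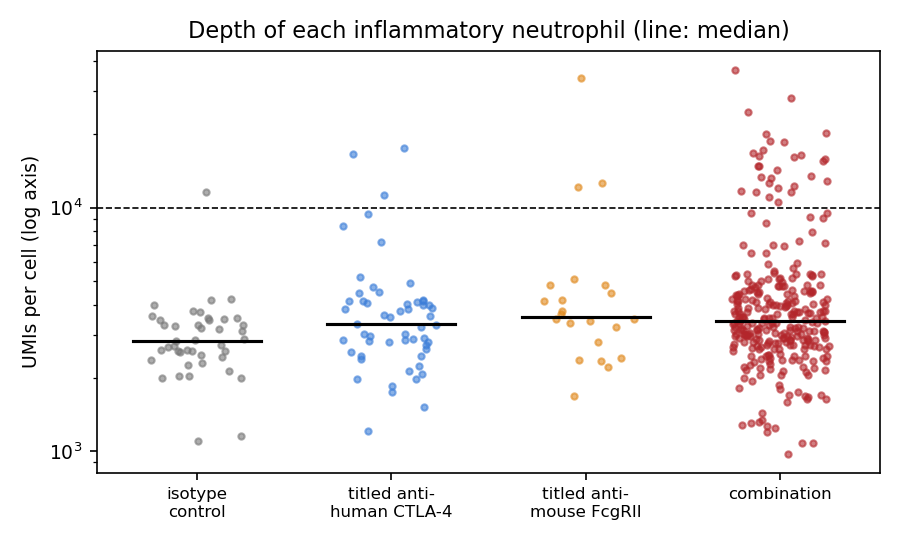
UMIs per cell (log axis) of each inflammatory neutrophil in the 4 libraries; each point is 1 cell, the solid line the library's median and the dashed line 10005 UMIs. Cells above the dashed line number 1, 3, 3 and 29.

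Close to the threshold, 29 inflammatory neutrophils had 1 to 5 more UMIs of Cxcl2, Cxcl3 and Il1f9 than of Retnlg, Lrg1 and Mmp9, 15 had equal numbers, and 18 of the other neutrophils fell short by 1 to 5. Of the equal cells, 10 had none of the 6 transcripts, and 7 of these were deep cells, including all 3 deep cells of the library titled anti-mouse FcgRII. No complete barcode occurred in more than 1 library. The 16-base droplet part alone was shared by 712 to 1148 barcodes in each pair of libraries, but by no inflammatory neutrophils of different libraries.

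Among the inflammatory neutrophils, Cxcl2 was nearly universal and its companions were not. At least 1 Cxcl2 UMI was present in 399 of 414 cells (96.4%, exact 95% interval 94.1 to 98.0%), Il1f9 in 303 (73.2%) and Cxcl3 in 218 (52.7%). All 3 were found together in 163 cells, exactly 2 in 190 and Cxcl2 alone in 46. By library, all 3 were found in 25.6%, 41.8%, 18.2% and 42.5% of the cells. These shares describe the rule's own transcripts and carry no test.

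Cxcl2 was present at 18975, 11982, 10771 and 11573 CPM in inflammatory neutrophils and at 313, 417, 633 and 683 CPM in the other neutrophils. The cells varied widely around this: the median cell had 129, 111, 162 and 97.6 Cxcl2 UMIs per 10000, and the quartiles in the combination library were 48.9 to 192. Without the deep cells the level was 20757, 13625, 20407 and 15438 CPM, highest in the isotype control library and in that titled anti-mouse FcgRII. Cxcl2 was also found outside neutrophils, at 117, 196, 99.4 and 197 CPM in macrophages (at least 10 C1q UMIs and no Csf3r UMI), and 1.17% of T cells had a Cxcl2 UMI at equal depth. Both classes leave out cells with a Csf3r UMI. In the combination library 891 such cells were removed at the macrophage limit, and 437 of these had more than 10 UMIs of Cxcl2, Cxcl3 and Il1f9. The level of Cxcl2 in such cells is not given here.

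Cxcl3 was present at 1449.7, 847, 514 [973] and 1243 CPM in inflammatory neutrophils and at 0, 132, 0 and 177 CPM in the other neutrophils, where the isotype control library and that titled anti-mouse FcgRII had no UMI. Il1f9 behaved differently from the chemokine pair. Its level was 706, 816, 947 [1794] and 1383 CPM in inflammatory neutrophils and 749, 1494, 883 and 675 CPM in the other neutrophils. With the deep cells it was more than 2-fold apart in the combination library alone. At equal depth 54.8%, 69.8%, 56.1% and 66.8% of inflammatory neutrophils had an Il1f9 UMI against 69.7% of the other neutrophils and 0.0577% of T cells. Il1f9 was thus carried by both populations of neutrophils. G0s2, an inhibitor of triglyceride breakdown named with these cells but not used to choose them, was present at 2262, 1926, 1541 [2919.6] and 1187 CPM against 313, 637, 614 and 843 CPM in the other neutrophils.

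The blood-stage side of the rule was correspondingly low. Retnlg was present at 433, 127, 88.3 [167] and 124 CPM against 4935, 2065, 4779 and 2066 CPM, Lrg1 at 68.3, 171, 209 [395] and 68.1 against 814, 1274, 1708 and 599 CPM, and Mmp9 at 805, 895, 730.4 [1384] and 848 against 2756, 4021, 3109 and 3264 CPM. At equal depth 35.9%, 57.4%, 56.2% and 53.2% of the inflammatory neutrophils still had an Mmp9 UMI against 1.60% of T cells.

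The neutrophil identity of the cells was checked mainly on transcripts that did not choose them, of which Cxcr2, Hdc and Ly6g were picked after their values were seen. Cxcr2, the receptor for CXCL2, was present at 1389, 1373, 522 [988] and 943 CPM in inflammatory and 1933, 3406, 2572 and 2218 CPM in other neutrophils, and 51.5%, 71.5%, 53.2% and 58.7% of inflammatory neutrophils had a UMI at equal depth against 0.0216% of T cells. Csf3r itself, which the rule required in both populations, was present at 3863, 3216, 1926 [3452] and 2849 CPM in inflammatory and at 7905, 11689, 9519 and 7431 CPM in other neutrophils. Both Cxcr2 and Csf3r were lower in inflammatory neutrophils in each library. Over the 4 libraries Cxcr2 was at 189 CPM in the deep cells and 1362 CPM in the rest. The 3 deep cells of the library titled anti-mouse FcgRII had no UMI of Cxcr2 or S100a9, and their macrophage markers summed to 7293 CPM. For these 3 cells the check did not bear out a neutrophil identity. Hdc, which makes histamine in granulocytes, was present at 2049, 1452, 875 [1657] and 1406 CPM. No level of Hdc in other cells is given here, so these values alone do not set the cells apart. Ly6g, the usual surface marker of mouse neutrophils, was nearly absent, with 1, 2, 0 and 24 UMIs in inflammatory neutrophils, and it was low also in the other neutrophils at 123, 22.0, 154 and 50.6 CPM. The azurophil granule genes of bone marrow precursors (Elane, Mpo, Prtn3 and Ctsg) had 0, 0, 8.03 [0] and 0.710 [0] CPM together. Markers of dendritic cells summed to 0, 21.9 [11.0], 8.03 [15.2] and 80.9 [6.40] CPM, of T cells to 22.8, 8.77, 0 and 35.5 [11.7] CPM and of NK cells to 7.59, 4.39, 32.1 [15.2] and 22.0 [8.54] CPM. The rule itself limited Cd3d, Cd3e and Cd3g of the T cell and Ncr1 and Klrb1c of the NK cell markers, so those sums were partly fixed by the choice.

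Because the rule used this contrast, differences from the other neutrophils are described without a test. Of 2211 genes with at least 100 CPM in either population, 75 were at least 2-fold higher in inflammatory neutrophils in each of the 4 libraries (3.39%) and 149 at least 2-fold lower (6.74%). Rescaling to the median ratio would shift all genes by 0.13 and 0.12 on the log2 scale in the library titled anti-human CTLA-4 and in that titled anti-mouse FcgRII.

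The higher genes included secreted signals. Ccl3, a chemokine that attracts monocytes and T cells, was present at 5457, 4155, 3877 [7253] and 4981 CPM against 411, 308, 307 and 574 CPM. Tnf was present at 638, 733, 337 [563] and 959 against 82.3, 0, 96.0 and 177 CPM, with no UMI in the other neutrophils of the library titled anti-human CTLA-4. Vegfa, the angiogenic growth factor, was present at 972, 597, 746 and 483 against 82.3, 0, 57.6 and 118 CPM, Inhba, a subunit of activin, at 463, 281, 225 [395] and 500.4 against 0, 0, 0 and 59.0 CPM, and Spp1, encoding osteopontin, at 3962, 1000.3, 1653 and 1527 against 444, 132, 0 and 321 CPM. In each of these the lowest inflammatory value was above the highest value of the other neutrophils.

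Of the 12 genes outside the rule with the highest ratios to the other neutrophils, these 5 secreted signals were joined by the heat shock gene Hspa1b, the prolyl hydroxylase gene P4ha1 of collagen folding, the transcription factor gene Zeb2, and Rhov, Ifrd1, Mreg and Ccdc126. Ifrd1 was present at 4455, 1035, 1252 [2296] and 727 CPM against 132, 109.9, 57.6 and 202 CPM and Zeb2 at 850.1, 891, 891 and 907 against 214, 87.9, 134 and 269.9 CPM. Zeb2 was even across libraries, whereas Ifrd1 was far higher in the isotype control library than elsewhere.

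Those lower in each library included Alox5, the 5-lipoxygenase of leukotriene synthesis, at 30.4, 35.1, 72.2 [122] and 50.4 CPM against 296, 198, 537 and 287 CPM, and haptoglobin (Hp) at 319, 417, 538 [122] and 192 against 2023, 2109, 2840.4 and 1543 CPM. Ccpg1, a receptor for autophagy of the endoplasmic reticulum, was present at 45.5, 61.4, 96.3 and 61.7 against 699, 791, 1171 and 447 CPM, and Pi16 at 75.9 [49.9], 70.2, 120.4 [0] and 39.0 against 494, 681, 633 and 354 CPM. The remaining genes with the lowest ratios were Tbc1d10c, Adam19, Kif23, AI467606, Fam122a, R3hdm4, Tmem154 and Pithd1.

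Gene lists are given beside the shares over all genes, 3.39% higher and 6.74% lower in each library. Of the 17 gelatinase granule and blood-stage genes tested, 10 were lower in each library and 0 higher; the list holds the 3 blood-stage genes of the rule and S100a8 and S100a9. Of 13 tumor-stage neutrophil genes, 5 were higher and 0 lower. Among them, Cd274, encoding PD-L1, was present at 2839, 2571, 939 [1475] and 2873 CPM against 197, 176, 384 and 1931 CPM, so that only in the combination library were the other neutrophils within 2-fold of the inflammatory ones. Cd14, the lipopolysaccharide co-receptor, was present at 3544, 4931, 2881 [4942] and 4451 against 444, 1318, 729 and 2049.5 CPM. Of 21 immediate early and stress genes, 5 were higher and 0 lower, and of 14 glycolysis and hypoxia genes 3 and 0. The 26 interferon-stimulated genes gave 0 higher and 0 lower, with median log2 ratios of 1.88, 1.40, -0.09 and 0.26 beside -0.25, 0.03, 0.06 and -0.04 over all genes tested. The word shown above was present in 6 of 85 promoters of the higher genes, those of Cxcl2 and Cxcl3, which are genes of the rule shown above to hold it, and of Acod1, Ctsl, Ier3 and Mapk6 (63 of 75 genes had a promoter entry). It was present in 0.317% of all promoters and in 1 of 172 of the lower genes, that of Il16.

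**Figure D3:**
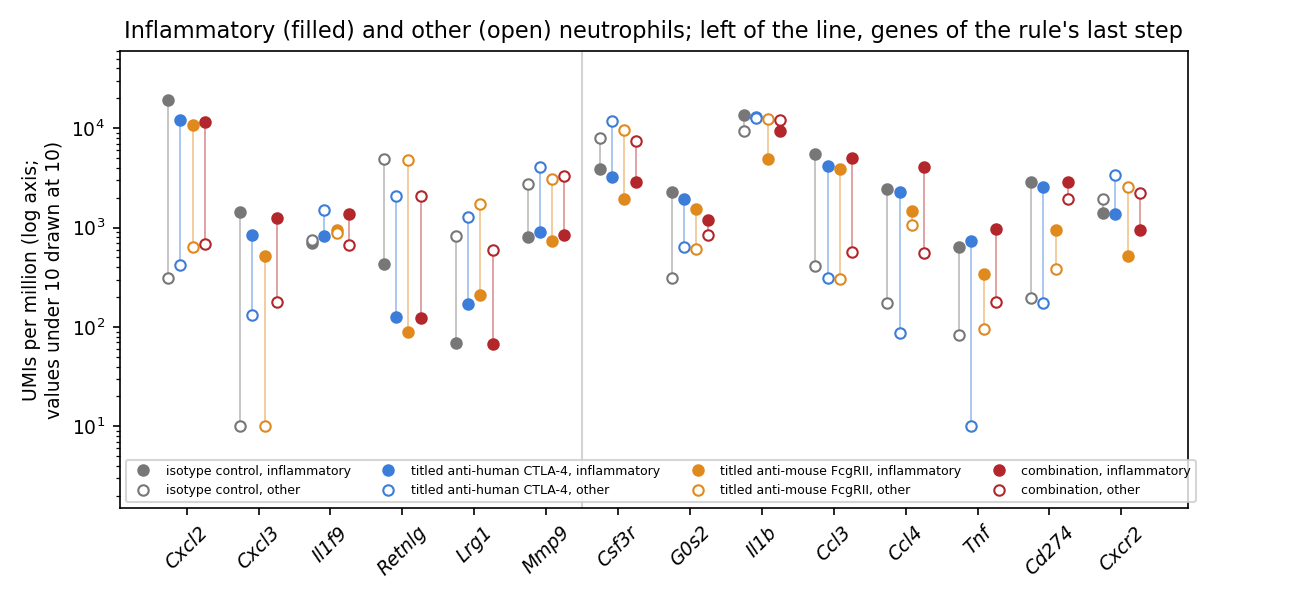
Summed level in CPM (log axis, values under 10 drawn at 10) of 14 genes in inflammatory neutrophils (filled) and other neutrophils (open) of each library. Cxcl2 and Cxcl3 are far apart and Il1f9 is not; left of the grey line are genes that chose the cells, and the unchosen Ccl3 and Tnf are higher in the filled points of every library.

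Levels in the combination were then set against each other library, with UMIs summed over inflammatory neutrophils. All 3 comparisons share the combination library, so they are not independent. Against the isotype control, 280 of 1975 genes were at least 2-fold higher (14.2%) and 174 lower (8.81%). Against the library titled anti-human CTLA-4, 48 of 1980 were higher (2.42%) and 39 lower (1.97%). Against the library titled anti-mouse FcgRII, 180 of 2274 were higher (7.92%) and 263 lower (11.6%). Of 2489 genes with 100 CPM in any library, 20 were higher than in each of the 3 (0.804%) and 9 lower (0.362%).

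Without the deep cells, the shares of all genes past 2-fold higher and lower were 12.1% and 8.64% against the isotype control, 3.30% and 4.76% against the library titled anti-human CTLA-4 and 11.9% and 14.9% against that titled anti-mouse FcgRII. List counts given below without those cells are to be set beside these shares. Of the genes past 2-fold with the deep cells, 145 of 280 higher and 130 of 174 lower genes against the isotype control were so also without them. Against the library titled anti-human CTLA-4 these were 20 of 48 higher and 29 of 39 lower, and against that titled anti-mouse FcgRII 109 of 180 higher and 85 of 263 lower. Most of the genes higher than in each other library rested on those cells. Without those cells 14 genes were higher than in each other library, and 2 were among the 20: Gbp4, an interferon-induced guanylate-binding protein, and Traf1, an adaptor of TNF receptors. Gbp4 was present at 22.8, 118, 24.1 [0] and 251 CPM, and 2.69%, 12.1%, 0.831% and 20.4% of cells had a UMI at equal depth. Traf1 was present at 75.9, 52.6, 48.2 [76.0] and 154 CPM, a ratio to the isotype control of 2.03 (95% interval 1.08 to 4.29). T cells carried both more often (43.4% and 43.1% of cells), and the part of free RNA in these levels was not tested. Mcfd2, a cargo receptor for coagulation factors, was present at 15.2, 48.3, 48.2 and 159.7 CPM with and 16.6, 27.4, 60.8 and 118 CPM without the deep cells.

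Several of the highest ratios rested on 1 cell. Krt8, Krt18 and Krt19, keratins of epithelial cells, and Clca1 and Fcgbp, genes of mucus-secreting epithelium, had no UMI in the inflammatory neutrophils of the isotype control library. In the combination library 433 of 433 Krt8 UMIs, 425 of 428 Krt19 UMIs and 377 of 377 Clca1 UMIs were in a single cell, and without the deep cells both libraries had at most 3 UMIs of each of the 5 genes. Mmp12 and Ass1, a macrophage elastase and an enzyme of arginine synthesis, were at 7.59, 140.4, 16.1 and 1158 and 7.59, 171, 112 and 471 CPM with the deep cells and at 8.32, 0, 15.2 and 81.1 and 8.32, 49.3, 15.2 and 44.8 CPM without them. MHC class II genes followed the deep cells as well: H2-Ab1 was at 129, 303, 385 and 855 CPM with and 141, 115, 15.2 and 188 CPM without them, and Ccl2 at 37.9, 13.2, 56.2 and 198 and 41.6, 11.0, 0 and 17.1 CPM.

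Of the 9 genes lower than in each other library, 3 were also lower without the deep cells. These were Ciart, a repressor of the circadian clock, at 501, 109.7, 120.4 [228] and 49.0 CPM, Olfm4, a neutrophil granule protein, at 167, 162, 136 [259] and 60.3 [90.7] CPM, and coagulation factor V (F5) at 91.1, 92.1, 128 [243] and 36.9 CPM. The ratio of Ciart to the isotype control was 0.0978 (95% interval 0.0687 to 0.139), and 40.5%, 9.40%, 20.4% and 5.01% of cells had a Ciart UMI at equal depth against 1.57% of T cells. The 6 lower only with the deep cells included were the heat shock genes Hspa1a and Hspa1b, Itga4, an integrin subunit, at 68.3 [16.6], 74.6 [27.4], 153 [0] and 30.5 CPM, Ap1s2, an adaptor of vesicle transport, at 98.7, 87.7, 104 [0] and 29.8 [19.2] CPM, and Plpp3 and Pmp22 at 0, 4.39 [0], 104 [0] and 5.68 [1.07] and 0, 0, 144 [15.2] and 3.55 CPM.

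Because summed levels moved with the deep cells, the share of cells with a UMI was compared as well, where each cell counts once. Each cell was drawn down to 2113 UMIs, and 42 shallower inflammatory neutrophils were left out. The same share in T cells stands beside each share, as a level that free RNA could give where T cells lack the transcript. These T cells were taken only if they had no Csf3r UMI. Their shares may therefore understate free RNA of neutrophil transcripts. T cells can themselves make Ccl4, Tnf, Nfkbia and Mcl1 among others, and there the share is no background of free RNA alone. Il1a, Icam1, Fcgr1, Gbp5, Tap2, Sod2, Atf3, Ddit3 and Hilpda, below, were picked for description after their values were seen.

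**Figure D4:**
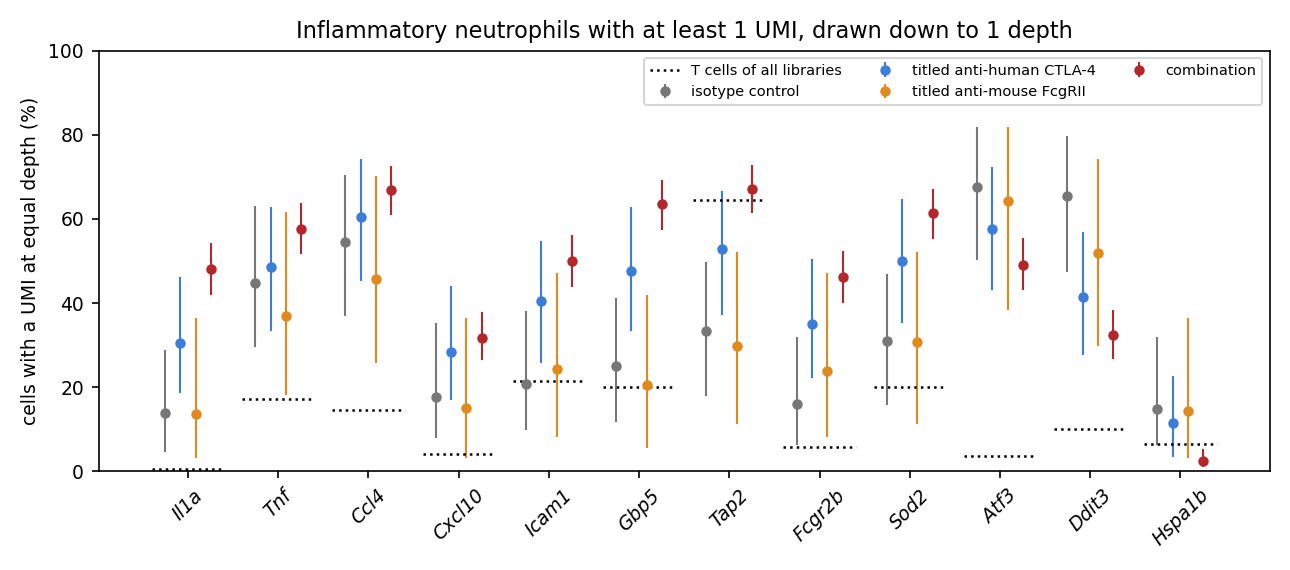
Percentage of inflammatory neutrophils with at least 1 UMI of each gene after drawing every cell down to the same depth, by library; points are expected shares, lines exact 95% intervals of the nearest whole number of cells, and dotted lines the share in T cells. In the combination library the share with Il1a is the highest of the 4 and that with Hspa1b the lowest, under the share in T cells.

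Several chemokines other than the neutrophil attractants were past 2-fold. Of the CC and interferon-inducible chemokines, 6 higher and 0 lower of 9 genes tested were past 2-fold against the isotype control (over all genes 14.2% and 8.81%), 2 higher and 0 lower of 9 against the library titled anti-human CTLA-4 (over all genes 2.42% and 1.97%) and 6 higher and 0 lower of 9 against that titled anti-mouse FcgRII (over all genes 7.92% and 11.6%). The counts without the deep cells were 4 higher and 0 lower of 7 (over all genes then 12.1% and 8.64%), 1 higher and 1 lower of 7 (3.30% and 4.76%) and 4 higher and 0 lower of 7 (11.9% and 14.9%). Of the neutrophil-attracting chemokines, only Cxcl2 and Cxcl3 reached 100 CPM; Cxcl1 had 0, 2, 0 and 51 UMIs. Ccl4 was present at 2429, 2255, 1453 [2737] and 4049.8 CPM with a ratio to the isotype control of 1.67 (95% interval 1.49 to 1.87), and 54.4%, 60.4%, 45.8% and 67.0% of cells had a UMI against 14.6% of T cells. Cxcl10, the interferon-induced ligand of CXCR3 on T cells, was present at 129, 1123, 265 [502] and 1266 CPM with a ratio of 9.81 (95% interval 6.11 to 16.9) to the isotype control and 1.13 (95% interval 0.988 to 1.29) to the library titled anti-human CTLA-4. It was found in 17.6%, 28.3%, 15.1% and 31.8% of cells against 4.17% of T cells. Ccl4 and Cxcl10 were thus both highest in the combination library, Cxcl10 by little over the library titled anti-human CTLA-4. Ccl3, by contrast, had a ratio of 0.913 (95% interval 0.845 to 0.987) to the isotype control.

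Of the interleukin-1 family and inflammasome genes, 2 higher and 1 lower of 13 were past 2-fold against the isotype control (over all genes 14.2% and 8.81%), 0 higher and 0 lower of 13 against the library titled anti-human CTLA-4 (2.42% and 1.97%) and 4 higher and 1 lower of 13 against that titled anti-mouse FcgRII (7.92% and 11.6%). The counts without the deep cells were 3 higher and 0 lower of 12, 2 higher and 0 lower of 12 and 3 higher and 0 lower of 12. The list holds Il1f9, a gene of the rule, so these counts were partly fixed by the choice. Without the deep cells Il1f9 was past 2-fold higher against the isotype control and against the library titled anti-human CTLA-4. Il1a was present at 121, 575, 153 and 938 CPM, with a ratio of 7.72 (95% interval 4.74 to 13.5) to the isotype control, 1.63 (95% interval 1.36 to 1.97) to the library titled anti-human CTLA-4 and 6.15 (95% interval 3.92 to 10.2) to that titled anti-mouse FcgRII. At equal depth 13.8%, 30.6%, 13.7% and 48.1% of cells had an Il1a UMI (exact 95% intervals 4.54 to 28.8%, 18.7 to 46.3%, 3.05 to 36.3% and 42.0 to 54.3%) against 0.447% of T cells, and the ratio to the isotype control without the deep cells was 9.40. The interval of the combination library overlapped that of the library titled anti-human CTLA-4 and neither of the remaining pair. Il1b, the related secreted cytokine, was present at 13464, 13013, 4872 [8515] and 9362 CPM and was detected in 88.3%, 83.3%, 79.1% and 87.2% of cells against 3.33% of T cells. Il1rn, the receptor antagonist, was present at 5191, 5651, 1838 and 4811 CPM, lowest in the library titled anti-mouse FcgRII with or without the deep cells (5684, 5528, 3285 and 6189.6 CPM). Il1f9, a gene of the rule, was present at 706, 816, 947 [1794] and 1383 CPM. Without the deep cells its level was 774, 953, 1794 and 1954 CPM. Its ratio to the isotype control with them was 1.96 (95% interval 1.59 to 2.44). This ratio describes a transcript that chose the cells and carries no test.

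Other cytokines gave 1 higher and 2 lower of 7 genes past 2-fold against the isotype control, 0 higher and 0 lower of 7 against the library titled anti-human CTLA-4 and 2 higher and 0 lower of 7 against that titled anti-mouse FcgRII, with the same shares over all genes. They gave, without the deep cells, 2 higher and 1 lower of 8, 0 higher and 0 lower of 8 and 2 higher and 1 lower of 8. Tnf was present at 638, 733, 337 [563] and 959 CPM and in 44.7%, 48.7%, 36.9% and 57.7% of cells against 17.1% of T cells, and Osm, oncostatin M, at 1541, 895, 738 [1110.0] and 705 CPM, highest in the isotype control library. Csf1, the macrophage growth factor, was present at 622, 443, 393 [745] and 613 CPM and in 38.6%, 49.0%, 37.0% and 54.7% of cells against 8.30% of T cells. Of the NF-kB subunits and feedback genes, 1 higher and 1 lower of 17 were past 2-fold against the isotype control (over all genes 14.2% and 8.81%), 1 higher and 0 lower of 17 against the library titled anti-human CTLA-4 (2.42% and 1.97%) and 5 higher and 0 lower of 17 against that titled anti-mouse FcgRII (7.92% and 11.6%). Leaving out the deep cells gave 1 higher and 0 lower of 17, 1 higher and 0 lower of 17 and 2 higher and 0 lower of 17. Nfkbia, the inhibitor induced by NF-kB itself, was present at 2421, 2988, 1533 [2722] and 3349 CPM and in 68.3%, 87.5%, 78.8% and 89.5% of cells against 52.4% of T cells, lowest in the isotype control library by share of cells.

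Of neutrophil surface receptors, 2 higher and 2 lower of 24 were past 2-fold against the isotype control, beside 14.2% and 8.81% of all genes, 0 higher and 0 lower of 23 against the library titled anti-human CTLA-4 (2.42% and 1.97%) and 3 higher and 1 lower of 24 against that titled anti-mouse FcgRII (7.92% and 11.6%). Leaving out the deep cells gave 1 higher and 2 lower of 24, 1 higher and 0 lower of 23 and 1 higher and 1 lower of 24. Clec4d, a C-type lectin that senses mycobacterial lipid, was present at 3636, 3330.0, 2239 [3467] and 2735 CPM, Ccrl2, a receptor that binds chemerin, at 2550.2, 2229, 995 [1855] and 2162 CPM and Ptafr, the receptor for platelet-activating factor, at 1366, 1514, 1179.9 [1886] and 1476 CPM. Icam1, which binds leukocyte integrins, was present at 205, 834, 136 [228] and 851 CPM and in 20.8%, 40.4%, 24.3% and 49.99% of cells (exact 95% intervals 9.83 to 38.2%, 25.8 to 54.7%, 8.22 to 47.2% and 43.8 to 56.2%), and only in the combination library and in that titled anti-human CTLA-4 was the share clearly above the 21.4% of T cells.

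Fc receptors bind the constant part of antibodies, and one of them was the target of AT130-2. Fcgr2b (chr1:170958617-170976547, minus strand), which encodes FcgRII, the inhibitory receptor and that target, was present at 137, 513, 843 and 625 CPM in inflammatory neutrophils and 1208, 1219.7, 1164 and 1035 CPM in macrophages. Without the deep cells its level was 149.8, 449, 76.0 and 433 CPM, and 15.99%, 35.0%, 24.0% and 46.1% of cells had a UMI (exact 95% intervals 6.19 to 32.0%, 22.2 to 50.5%, 8.22 to 47.2% and 40.1 to 52.4%) against 5.77% of T cells. The interval of the combination library lay above that of the isotype control library and overlapped the remaining pair. In the library titled anti-mouse FcgRII 95 of 105 UMIs were in a single cell. The activating receptor genes Fcgr3 and Fcgr4 were present at 1746, 1421, 1653 and 1416 and 926, 592, 569.9 and 692 CPM, and their signaling chain Fcer1g at 2209, 2900.0, 2263 and 2689.9 CPM. Fcgr1, the high-affinity receptor, was at 49.9, 38.4, 0 and 51.2 CPM without the deep cells. Fcgr3 was found in 88.9%, 83.4%, 94.0% and 86.7% of cells against 7.88% of T cells and Fcer1g in 93.5%, 98.3%, 91.2% and 96.5% against 26.8%. Of the Fc receptors and chain, 2 higher and 0 lower of 5 were past 2-fold against the isotype control (over all genes 14.2% and 8.81%), 0 higher and 0 lower of 5 against the library titled anti-human CTLA-4 (2.42% and 1.97%) and 0 higher and 0 lower of 5 against that titled anti-mouse FcgRII (7.92% and 11.6%); without the deep cells the counts were 1 higher and 0 lower of 4, 0 higher and 0 lower of 4 and 2 higher and 0 lower of 4.

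Interferon-stimulated genes varied widely from cell to cell and, summed over cells, were lowest in the library titled anti-mouse FcgRII. Of 27 measured, 3 higher and 0 lower of 26 tested were past 2-fold against the isotype control (median log2 ratio 0.19 beside 0.08 over all genes), 0 higher and 0 lower of 26 against the library titled anti-human CTLA-4 (0.11 beside -0.01) and 14 higher and 0 lower of 26 against that titled anti-mouse FcgRII (1.11 beside -0.20). Over all genes the shares were 14.2% and 8.81%, 2.42% and 1.97%, and 7.92% and 11.6%, higher and lower in turn. The counts without the deep cells were 4 higher and 0 lower of 25, 0 higher and 1 lower of 26 and 18 higher and 0 lower of 25, the last beside 11.9% and 14.9% of all genes. That library held 22 inflammatory neutrophils. The median cell had 95.8, 218, 79.1 and 242 UMIs of these genes per 10000, so by the median cell the isotype control library was nearly as low. In the isotype control library the quartiles ran from 30.7 to 346 and in the combination library from 101 to 414, so that the upper quartiles were much closer than the medians.

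**Figure D5:**
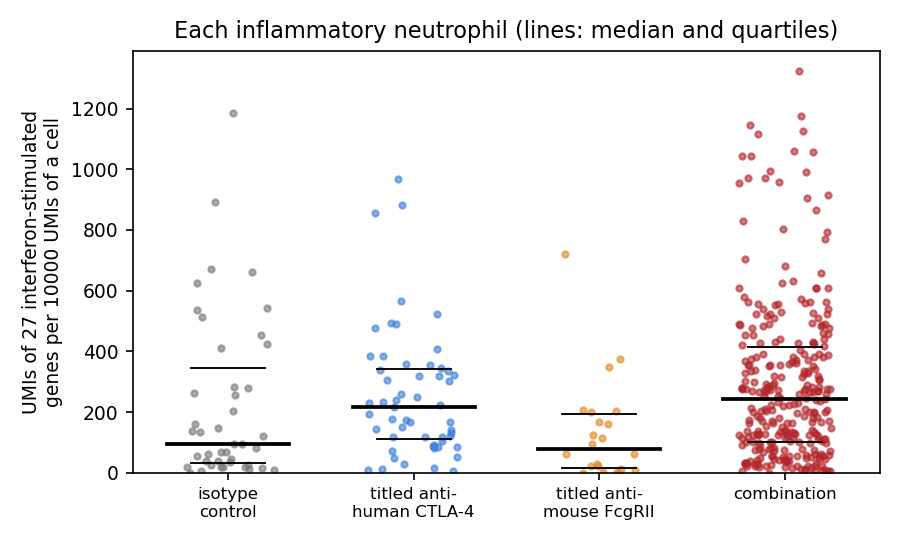
UMIs of 27 interferon-stimulated genes per 10000 UMIs in each inflammatory neutrophil of the 4 libraries; each point is 1 cell and lines are the median and quartiles. The medians are 95.8, 218, 79.1 and 242, and every library has cells near 0 beside cells well above its median.

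Of single members, Rsad2, encoding the antiviral protein viperin, was present at 3863, 3369, 771 and 2965 CPM and Isg15, a ubiquitin-like modifier, at 3241, 3488, 1116 and 3187 CPM. Both were lowest in the library titled anti-mouse FcgRII, with or without the deep cells (4228, 3369, 1110.0 and 4057 and 3537, 3813, 1490.2 and 4195 CPM without them). With the deep cells neither was higher in the combination than in the isotype control library; without them Isg15 was, at a ratio of 1.19. Gbp5, a guanylate-binding protein induced by interferon gamma, was present at 372, 1114, 562 [1019] and 1379 CPM, in 25.1%, 47.7%, 20.6% and 63.7% of cells against 20.0% of T cells, with a ratio of 3.71 (95% interval 2.79 to 5.03) to the isotype control. The exact intervals of its shares in the isotype control library and in that titled anti-mouse FcgRII took in the share of T cells. Irf1 was present at 1078, 1834, 1099.6 [1992] and 2052 CPM with a ratio of 1.90 (95% interval 1.61 to 2.27).

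B2m, Tap2 and H2-K1, of class I antigen presentation, were highest in the combination library. The antigen presentation list, which holds class I and class II genes, gave 6 higher and 0 lower of 10 past 2-fold against the isotype control (over all genes 14.2% and 8.81%), 4 higher and 0 lower of 11 against the library titled anti-human CTLA-4 (2.42% and 1.97%) and 6 higher and 0 lower of 10 against that titled anti-mouse FcgRII (7.92% and 11.6%), and the median cell had 34.5, 55.5, 26.4 and 77.6 UMIs of the list per 10000. B2m, the light chain of MHC class I, was present at 819.7, 2439, 1886 and 3081 CPM with the deep cells and 866, 2169.6, 1414 and 3075 CPM without them, and its ratio with them was 3.76 (95% interval 3.11 to 4.59) to the isotype control. Tap2, a peptide transporter subunit for class I, was present at 266, 439, 305 and 669 CPM and H2-K1, a class I heavy chain, at 744, 926, 474 and 1159.7 CPM. These 3 genes were highest in the combination library with and without the deep cells, and without them the list gave 3 higher and 0 lower of 10, 2 higher and 0 lower of 10 and 7 higher and 0 lower of 10 in the 3 comparisons. T cells carry these genes widely (97.2% with a B2m UMI), and the part of free RNA in these levels was not tested.

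Many stress, hypoxia and immediate early genes were lower in the combination than in the isotype control library. Of immediate early and stress genes, 3 higher and 11 lower of 21 were past 2-fold against the isotype control (over all genes 14.2% and 8.81%), 0 higher and 2 lower of 21 against the library titled anti-human CTLA-4 (2.42% and 1.97%) and 3 higher and 3 lower of 21 against that titled anti-mouse FcgRII (7.92% and 11.6%). Without the deep cells the counts were 3 higher and 6 lower of 21, 1 higher and 2 lower of 21 and 3 higher and 2 lower of 20. Hspa1a and Hspa1b, inducible HSP70 genes, were present at 797, 597, 233 [30.4] and 55.4 and 736, 671, 610.0 and 248 CPM. Both rested on few cells: Hspa1a was found in 12.4%, 6.92%, 11.6% and 1.98% of cells against 3.98% of T cells and Hspa1b in 14.9%, 11.4%, 14.3% and 2.55% against 6.53%. In the combination library both shares were under those of T cells. Ddit3, encoding the stress factor CHOP, was present at 1002, 272, 305 [563] and 205 CPM and in 65.5%, 41.5%, 51.9% and 32.3% of cells against 10.1% of T cells, with a ratio to the isotype control of 0.205 (95% interval 0.166 to 0.253). Atf3 was present at 2467, 886, 979 and 662 CPM, in 67.7%, 57.7%, 64.3% and 49.1% of cells against 3.68% of T cells, and Jun at 4053, 2399.9, 1870.1 and 1959 CPM. Not all stress genes were lower: Sod2, the mitochondrial superoxide dismutase, was present at 281, 667, 233 and 958 CPM and in 31.0%, 50.05%, 30.7% and 61.4% of cells against 20.1% of T cells.

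Of the glycolysis and hypoxia genes, 0 higher and 5 lower of 15 were past 2-fold against the isotype control (over all genes 14.2% and 8.81%), 0 higher and 0 lower of 15 against the library titled anti-human CTLA-4 (2.42% and 1.97%) and 0 higher and 2 lower of 15 against that titled anti-mouse FcgRII (7.92% and 11.6%). Leaving out the deep cells gave 0 higher and 5 lower of 15, 0 higher and 0 lower of 15 and 0 higher and 6 lower of 15, the last beside 11.9% and 14.9% of all genes. Ero1l, an oxidase for disulfide bonds induced by hypoxia, was present at 2649, 1149, 2015 [3391] and 1145 CPM, and Hilpda, a lipid droplet protein induced by hypoxia, at 3734, 2167, 1798 [3072] and 1243 CPM. Slc2a1, the glucose transporter GLUT1, was present at 1806, 1035, 1549 and 903 CPM and Ldha, lactate dehydrogenase, at 1571, 1031, 1565 and 951 CPM. All 4 were higher in the isotype control than in the combination library, whereas the library titled anti-human CTLA-4 was close to the combination for Ero1l, Slc2a1 and Ldha.

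Immune-regulatory enzymes and ligands gave 3 higher and 0 lower of 12 past 2-fold against the isotype control (over all genes 14.2% and 8.81%), 0 higher and 0 lower of 12 against the library titled anti-human CTLA-4 (2.42% and 1.97%) and 4 higher and 1 lower of 12 against that titled anti-mouse FcgRII (7.92% and 11.6%). Leaving out the deep cells gave 4 higher and 0 lower of 12, 1 higher and 1 lower of 12 and 3 higher and 1 lower of 13. The next 3 lists are given for the same 3 comparisons, in that order. Acod1, which makes itaconate, was present at 4539, 4510.2, 3347 [6295] and 5376 CPM, and Thbs1, thrombospondin 1, at 9707, 10187, 7152 and 5601 CPM, lowest in the combination library. Cd274 was present at 2839, 2571, 939 [1475] and 2873 CPM and found in 88.1%, 84.5%, 64.4% and 90.3% of cells against 21.8% of T cells, lowest in the library titled anti-mouse FcgRII. Survival and death genes gave 3 higher and 1 lower of 11, 0 higher and 0 lower of 11 and 2 higher and 0 lower of 11 (3 higher and 0 lower of 11, 0 higher and 0 lower of 11 and 2 higher and 0 lower of 11 without the deep cells); Mcl1, on which neutrophil survival depends, was present at 3248, 2654, 2263 and 2509.7 CPM and in 99.7%, 98.0%, 96.5% and 97.2% of cells against 70.3% of T cells. Oxidase complex genes gave 1 higher and 0 lower of 6, 1 higher and 0 lower of 6 and 0 higher and 0 lower of 6 (2 higher and 0 lower of 6, 0 higher and 0 lower of 6 and 1 higher and 0 lower of 6 without them). Specific granule genes gave 2 higher and 1 lower of 4, 0 higher and 0 lower of 4 and 0 higher and 3 lower of 4 (2 higher and 1 lower of 4, 0 higher and 0 lower of 4 and 0 higher and 1 lower of 4 without them), and Lcn2, lipocalin 2, was present at 114, 268, 474 [729.9] and 342 CPM. Cell cycle genes summed to 220.1, 167, 193 [60.8] and 223 CPM.

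Macrophage and monocyte markers moved with the deep cells. The 13 macrophage markers summed to 1746, 2079.6, 4021 and 2146 CPM with and 1615, 1474, 1095 and 1594 CPM without them, Cd68 being the most abundant; C1qa, C1qb, C1qc and Csf1r among them were limited by the rule. Monocyte markers summed to 1503, 1790.0, 5016 and 1818 and 241, 1205, 958 and 463 CPM, with Fn1 the most abundant. B cell markers summed to 266, 772, 72.2 and 117 CPM with and 191, 942, 45.6 and 116 CPM without the deep cells, with Ighm the most abundant; in the library titled anti-human CTLA-4 the upper quartile over cells was 0 and the highest cell had 202 per 10000. Eosinophil, basophil and mast cell markers summed to 7.59, 8.77, 8.03 [15.2] and 75.2 [18.1] CPM with Gata2, and tumor and stromal markers to 83.5, 140.4, 128 [60.8] and 661 [184] CPM with Krt8. Of the markers measured, 1 of 10 of T cells, 3 of 8 of NK cells, 2 of 8 of dendritic cells and 3 of 9 of eosinophils, basophils and mast cells had no UMI in any inflammatory neutrophil. In the same 3 comparisons the tumor-stage neutrophil genes gave 1 higher and 2 lower of 13, 0 higher and 0 lower of 13 and 2 higher and 0 lower of 13, and the blood-stage genes 1 higher and 1 lower of 13, 0 higher and 2 lower of 15 and 2 higher and 4 lower of 15. The blood-stage list holds Retnlg, Lrg1, Mmp9, S100a8 and S100a9 of the rule, so its counts were partly fixed by the choice. Over all genes 14.2% and 8.81%, 2.42% and 1.97%, and 7.92% and 11.6% were higher and lower. These were, without the deep cells, 1 higher and 2 lower of 13, 0 higher and 0 lower of 13 and 4 higher and 1 lower of 13, and 1 higher and 1 lower of 11, 0 higher and 3 lower of 16 and 3 higher and 1 lower of 14. The part of other cells in the differences between libraries was not tested.

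Although few, the inflammatory neutrophils held a large part of the G0s2 transcripts. Il1f9, S100a8, Cxcl2 and Cxcl3 were used by the rule, so that their shares were partly fixed by the choice; G0s2 and Il1b were not. They had 0.0740%, 0.177%, 0.0875% and 0.718% of all UMIs of kept cells. They held 31.3%, 53.1%, 46.3% and 40.7% of the G0s2 UMIs, 17.03%, 38.0%, 43.4% and 40.2% of Il1f9, 13.3%, 39.4%, 13.8% and 32.4% of S100a8 and 12.5%, 13.9%, 9.61% and 24.4% of Cxcl2. For Cxcl2 and Cxcl3 (11.5%, 10.9%, 5.73% and 14.0%) the share was highest in the combination library, and for G0s2 it was highest in the library titled anti-human CTLA-4. Most Cxcl2 UMIs of each library were therefore in other cells, and Il1b, of which they held 2.53%, 5.42%, 1.41% and 9.49%, was so to a greater degree.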

How the data were processed

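Live CD45+ tumor cells were profiled with probe-based single-cell RNA-seq of fixed cells (Chromium Flex), which reads only the genes its probes target. The authors aligned and counted the reads with Cell Ranger (7.0.0 in the submitters' processing notes, 7.2.0 in the file headers, mm10) and deposited whole-number UMI counts per gene and called cell, before their own filtering. Each of the 4 libraries was 1 group, taken from its title. The rule was applied to the 28290 deposited barcodes, and the counts of the chosen cells were summed per library and scaled to CPM. A gene was tested at 100 CPM or more in a compared library and called at 2-fold; against a library with no UMI the ratio was computed at a floor of 3 UMIs per library and is a lower bound. Share ratios have log-normal and UMI ratios exact conditional 95% intervals. These and the floors cover counting error only. The intervals of UMI ratios count each UMI as an independent draw and leave out differences between cells. They are therefore too narrow where few cells hold many of a gene's UMIs. The members and gene lists were chosen with earlier results of these data known. Named genes were those of the rule, up to 4 of the highest summed genes of each list, those past 2-fold against every other library (up to 10 in each direction) and the 12 highest and 12 lowest against the other neutrophils; names outside this rule are said to be so in the text. Monocytes were not compared as a class because Ly6c2 is not among the probes. Macrophages and T cells were taken without Csf3r UMIs. Shared 16-base droplet barcodes were counted between libraries. Gene positions are those of GENCODE in GRCm38. The counting steps were tested on simulated data. For the ratios and their intervals these were counts summed per library, without differences between cells. Clustering of UMIs in few cells was thus not covered. Alternatives were other limits of the rule, other scalings, other minimum levels and leaving out deep cells; replicates could not be left out. Python 3.11.15, numpy 2.4.6, scipy 1.17.1, pandas 2.3.3 and matplotlib 3.10.9 were used. Results on some genes are not reported here.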

Additional observations from a re-analysis of the deposited data

How the results depend on the processing

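The 6 share ratios kept their direction under all 9 alternatives of the rule, between 1.15 and 13.5. With at least 1000 genes per cell, the ratio of the combination to the isotype control was 12.8 of kept cells and 2.07 of neutrophils. At 50 CPM, 683 genes were higher and 291 lower against the isotype control, 186 and 94 against the library titled anti-human CTLA-4, 328 and 542 against that titled anti-mouse FcgRII, and 35 and 22 against each other library. At 200 CPM, 119 were higher against the isotype control, 19 and 19 were higher and lower against the library titled anti-human CTLA-4, 115 and 98 against that titled anti-mouse FcgRII, and 11 and 3 against each other library. With at least 2 times as many chemokine and Il1f9 UMIs as blood-stage UMIs, 81 were higher against the library titled anti-human CTLA-4, 347 against that titled anti-mouse FcgRII and 42 against each other library. As a mean over cells, 59 were lower against the library titled anti-human CTLA-4. Without the deep cells, 88 were lower against the library titled anti-human CTLA-4 and 116 higher than in the other neutrophils. The counts against each other library were chosen after seeing the data. Of the ratios of named genes to the isotype control, those of Ccl2 (0.410), Ccr2 (1.06), Chil3 (0.572), H2-Aa (0.872) and H2-Eb1 (0.769) reversed without the deep cells. As a mean over cells that of Krt18 was 0.959. This is a lower bound at the floor of 3 UMIs, since the isotype control library had no Krt18 UMI, and shows no reversal. Without the deep cells 50 of 123 ratios moved beyond their counting intervals, and 59 of 140 did as a mean over cells. The cause was not tested beyond the UMIs of the deep cells. For 29 named genes no ratio without the deep cells could be had, since both libraries had at most 3 UMIs. Rescaling to the median ratio shifts the comparison with the library titled anti-mouse FcgRII by 0.11 on the log2 scale. No paired analysis was possible because each group is 1 library and no test was made. With 22 to 294 cells per library and no replicate, differences between treatments cannot be told apart from differences between libraries.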
